A study of Caenorhabditis elegans with 39 samples.

Results

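Caenorhabditis elegans larvae whose ancestors had spent a short time as dauer larvae were compared fed and starved at the first larval stage (L1). The comparison rests on 9 libraries of polyadenylated RNA out of the 39 of the series, all of batch 1 by their labels. Fed larvae gave 4 libraries (LC11, LC12, LC13 and LC14), collected after 18 h with food, and starved larvae gave 5 (LC6, LC11, LC12, LC13 and LC14), collected after 24 h without it. Both groups are the wild-type laboratory strain N2 and carry no introduced allele. They are F3 larvae, descended through well-fed F1 and F2 generations from worms placed as embryos in dauer-forming liquid culture. Control descendants (4 fed and 5 starved libraries of batch 1) came from liquid culture without the dauer conditions and enter the same fit, and 4 further starved short-term dauer libraries belong to batch 2, which has no fed library.

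Feeding was confounded with other differences in handling. Fed and starved cultures differed in hours, and per the labels' protocols fed larvae were washed 3 to 4 times and starved larvae at most once, so these cannot be told apart from food. Each library pools a liquid culture of whole larvae, and fewer cells of a type and less RNA per cell cannot be told apart. The labels give the libraries as biological replicates and do not say which share a culture of ancestors. All 4 fed libraries and starved LC11 to LC14 are labelled lane 5, and starved LC6 is labelled lane 4.

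A larva that hatches without food stops at the L1 stage, with its postembryonic divisions on hold, and lives on stored fat and sugar. Food restarts growth and cell division, and the larva then builds a new cuticle and sheds the old one in its first moult. The insulin receptor DAF-2 and the transcription factor DAF-16, which insulin signalling restrains, are the best known controls of this choice. The dauer is a later, alternative larval form that waits out crowding and hunger with a special cuticle.

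The 9 libraries held 20950821 to 27061120 counts in genes, and starved LC14 was the shallowest. Starved LC14 also stood apart in what it contained. Reads outside genes made up 2.17%, 2.25%, 1.98% and 2.80% of the reads listed in fed LC11, LC12, LC13 and LC14, against 4.44%, 3.62%, 3.60%, 12.6% and 3.23% in starved LC11, LC12, LC13, LC14 and LC6. The groups did not overlap, and starved LC14 was far above every other library. Mean shares were 2.30% ± 0.350 in fed (SD, n = 4) and 5.50% ± 4.00 in starved larvae (SD, n = 5), a difference of -3.20 percentage points (two-sided exact permutation p = 0.0476 over all arrangements of the 9 libraries). Without starved LC14 the difference was -1.42 points (exact permutation p = 0.0286, the smallest its 70 arrangements can give). This share was chosen for testing with the unusual value of starved LC14 known from earlier results.

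At least 1 count was found in 23316 to 25653 features in fed libraries, against 33444 in starved LC14 and 24860 to 28307 in the other starved libraries. Of 21053 features with a mean under 1 CPM (read counts scaled to library size and TMM factors) in the other 8 libraries, 16058 (76.3%) were highest in starved LC14. Choosing features that are low in the other 8 favours a higher value in the library left out of the choice. Their summed level was 2063 to 2903 CPM in fed libraries, against 18338 CPM in starved LC14 and 2766 to 4588 CPM in the other starved libraries. At the other end, of 1565 genes averaging 100 CPM or more over the other 4 starved libraries, 1562 (99.8%) were lowest of the starved libraries in LC14, at a median of 0.570 times the median of the other 4. Scaled by library total instead, 927 of them (59.2%) were lowest there, at a median of 0.915 times. Its TMM factor was 1.73, against 1.02 to 1.14 in the other starved libraries.

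**Figure D1:**
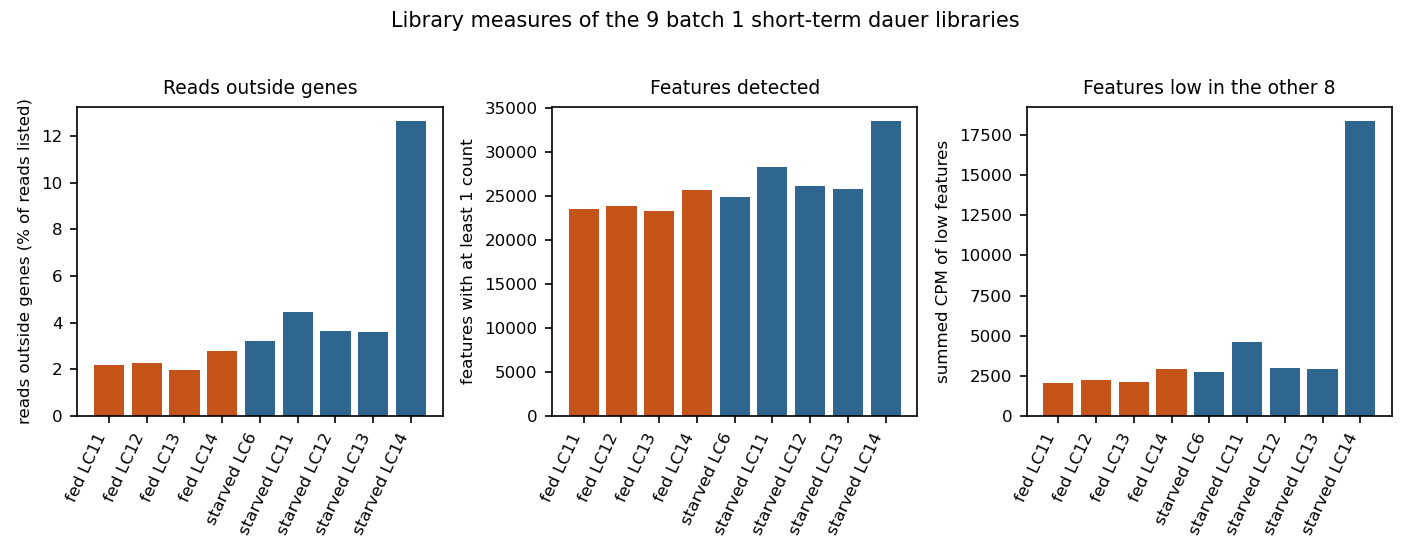
Share of reads outside genes, number of features with at least 1 count, and summed CPM of the 21053 features with a mean under 1 CPM in the other 8 libraries, one bar per library (fed to the left, starved to the right). Starved LC14 stands above every other library in each panel, with 12.6% of reads outside genes and 33444 features.

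Feeding went with a change in most measured genes. Of 18524 genes tested, 11301 (61%) had an adjusted p under 0.05 by the quasi-likelihood test of edgeR. Fed larvae had higher levels in 5207 of them (28.1% of those tested) and lower levels in 6094 (32.9%). The fit took in the 18 batch 1 libraries of short-term dauer and control descendants. The median log2 fold change (fed over starved) over all genes was -0.29, so directions of small changes are relative to that shift. Large changes were common: 872 genes were higher and 1574 lower by more than 2 on the log2 scale, and beyond 4 the numbers were 216 and 89. The excess of falls beyond 2 did not hold among well-measured genes. With at least 10 CPM on average in the higher group and no overlap, 677 were higher and 191 lower. The genes beyond 2 were not counted without starved LC14, so its part in the 1574 was not tested. The values of fed and starved libraries did not overlap in 48.9% of the genes, 5275 with fed above (28.5% of those tested) and 3779 with fed below (20.4%).

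The split between directions moved with the scaling. With TMM factors 46.1% of the called genes were higher in fed larvae. With upper-quartile factors 3546 were higher and 9475 lower (27.2% higher, median of all genes -0.68), and with library totals alone 3748 and 8456 (30.7% higher, median -0.62). Without a filter on low counts 5947 were higher and 4123 lower (59.1% higher). Without starved LC14, 5474 of 17972 genes were higher (30.5%) and 5245 lower (29.2%), with a median over all genes of -0.13. Of the genes called higher, 5037 of 5207 (96.7%) were called again without it. Among those called lower, 4872 of 6094 (79.9%) were called again and 1222 were not. In 1172 of these 1222, starved LC14 was the highest of the 9 libraries, and their median level was 3.30 CPM there and 0.545 CPM over the other 4 starved libraries. Choosing genes by the loss of their call favours a high value in the library left out. Of the 1222, 208 were not tested without starved LC14. Without starved LC6, which leaves the libraries of lane 5 among short-term dauer descendants, 5540 genes were higher and 5460 lower.

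Calls were also counted by gene class, beside the 28.1% higher and 32.9% lower among all genes tested. Among 16636 protein-coding genes tested, 5098 were higher and 5325 lower. Of 1007 pseudogenes 47 were higher and 497 lower, and of 451 features annotated as ncRNA 9 were higher and 139 lower. For ncRNA features the share called lower was near that of all genes, and the share called higher was below it. These calls include starved LC14, without which 1222 of all genes called lower were not called again. The classes were not counted without it, so its part in their directions was not tested. The libraries do not keep the strand, so reads from overlapping or antisense genes cannot be told apart, and reads of pseudogenes and of near-identical family members (cuticle collagens, hsp-16 genes, actins, msp genes) may be split among copies.

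Control descendants answered food in the same directions. In them 10536 genes (56.9%) were called in the same fit, of which 5317 were higher (28.7%) and 5219 lower (28.2%). The median over all genes was -0.18. Of the genes called higher, 4798 were shared, 92.1% of those of short-term dauer and 90.2% of those of control descendants. Of those called lower, 4549 were shared, 74.6% of those of short-term dauer and 87.2% of those of control descendants. No gene called in short-term dauer descendants was called the other way in control descendants. The contrast of both responses called 0 of 18524 genes in edgeR, with 539 at an unadjusted p under 0.05, and DESeq2 and limma voom also called 0.

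**Figure D2:**
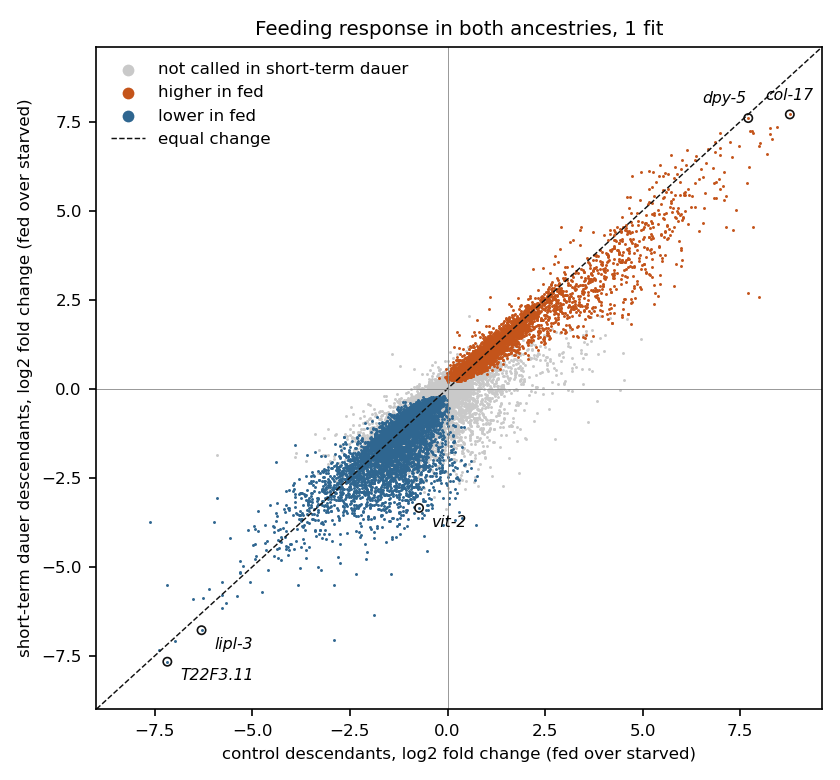
Log2 fold change of fed over starved larvae in short-term dauer descendants (vertical) against control descendants (horizontal) for the 18524 genes of the fit, coloured by the call in short-term dauer descendants. Called genes spread around the line of equal change, many of those higher in fed larvae lie below it, and so does vit-2 (-3.35 against -0.73).

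Starved libraries of batch 2 were set against the fed libraries of batch 1 without a test, since batch and food cannot be told apart there. Of all 5207 genes called higher, 4623 (88.8%) lay below every fed library in all 4 batch 2 starved libraries, and of all 6094 called lower, 3851 (63.2%) lay above every fed library in all 4. Among those that also changed by more than 2 on the log2 scale the numbers were 864 of 872 (99.1%) and 778 of 1574 (49.4%). The batch 2 libraries were shallower, with 9351453 to 12614098 counts in genes, and the calls lower include those that rest on starved LC14. The part of either in these numbers was not tested. A narrower set was picked for having no overlap in batch 1. Of 677 genes with a log2 fold change over 2, at least 10 CPM on average in fed larvae and no overlap, 675 to 676 lay below every fed library in each batch 2 starved library. Of 191 such genes in the other direction, all lay above every fed library in batch 2 libraries 10, 13 and 16, and 173 (90.6%) in library 14. Control starved LC6 of batch 1 resembled batch 2 library 14 in this respect: 171 of the 191 genes lay above every control fed library in it, against 188 to 191 in the other control starved libraries. The genes that set these 2 libraries apart include several of those with the largest changes and are pointed out below. Without control starved LC6, 10431 genes were called in control descendants (5968 higher and 4463 lower) and 0 in the difference of responses (405 at an unadjusted p under 0.05), and 5779 were higher and 5617 lower in short-term dauer descendants.

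The largest rises with food were all but 1 in cuticle collagens. Values per library are given in the order LC11, LC12, LC13 and LC14, with LC6 last among starved libraries. The collagen gene col-17 had 937, 1040.3, 1052 and 578 CPM in fed larvae, against 2.52, 1.97, 2.13, 8.28 and 4.64 CPM in starved larvae (log2 fold change 7.71, SE 0.43, edgeR adjusted p = 1.39e-10). Fed LC14 was the lowest of the fed libraries and starved LC14 the highest of the starved ones, and the groups lay far apart. Mutations in dpy-5, another cuticle collagen gene, make worms short and fat. It had 663, 733, 764 and 435 CPM in fed larvae, against 2.26, 2.47, 1.48, 4.98 and 4.08 CPM in starved larvae (log2 fold change 7.60, SE 0.46, edgeR adjusted p = 3.95e-10). The remaining collagen genes of the 8 largest rises were sqt-2, col-90, rol-6, sqt-1 and dpy-13, with log2 fold changes of 7.36, 7.31, 7.25, 7.24 and 7.17. F53F1.4 is not a collagen gene by name. It had 1017, 1108, 1114 and 876 CPM in fed larvae, against 4.94, 6.41, 6.23, 5.99 and 9.36 CPM in starved larvae (log2 fold change 7.19, SE 0.33, edgeR adjusted p = 1.09e-11).

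Of the 8 genes with the largest falls, 7 were under 10 CPM in every fed library. T22F3.11 had 4.06, 5.04, 7.29 and 4.42 CPM in fed larvae, against 829, 995, 1145, 688 and 1303 CPM in starved larvae (log2 fold change -7.67, SE 1.01, edgeR adjusted p = 6.39e-06). No fed library came near a starved short-term dauer library of batch 1. In control starved LC6 and in batch 2 library 14, however, T22F3.11 stood at 6.16 and 5.83 CPM, within the fed range, against 985 to 1156 CPM in the other control starved libraries and 914 to 1353 CPM in the other batch 2 libraries. Without control starved LC6 its log2 fold change in short-term dauer descendants was -7.60 with a smaller SE of 0.28. C23G10.11, F46C5.1 and the pseudogene F07C4.12 behaved alike, with 0.161, 1.61 and 0.443 CPM in control starved LC6. Among the 9 short-term dauer libraries C23G10.11 had 0.280, 0.401, 0.321 and 0.442 CPM in fed larvae, against 34.8, 45.8, 49.8, 39.6 and 65.6 CPM in starved larvae (log2 fold change -7.09, SE 1.03, edgeR adjusted p = 1.80e-05). F46C5.1 had 3.36, 4.50, 5.78 and 4.53 CPM in fed larvae, against 237, 344, 286, 185 and 336 CPM in starved larvae (log2 fold change -6.02, SE 0.91, edgeR adjusted p = 2.84e-05).

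The other 4 genes of this set kept levels above those of fed larvae in control starved LC6 and batch 2 library 14. The noncoding RNA tts-1 had 53.2, 58.4, 97.1 and 84.9 CPM in fed larvae, against 3897, 4101, 4391, 3256 and 4658 CPM in starved larvae (log2 fold change -5.89, SE 0.34, edgeR adjusted p = 8.77e-11). It reached 9654 CPM in control starved LC6 and 8284 CPM in batch 2 library 14, above every other library of these groups. The cathepsin B-like protease gene cpr-2 had 0.420, 0.624, 0.596 and 0.332 CPM in fed larvae, against 27.6, 22.5, 36.4, 30.03 and 19.8 CPM in starved larvae (log2 fold change -5.90, SE 0.54, edgeR adjusted p = 9.49e-08). It stood at 116 CPM in control starved LC6 and 238 CPM in batch 2 library 14. The pseudogene F15A4.8, with a log2 fold change of -7.34, and the lysosomal lipase gene lipl-3, with -6.78, stood lower in those libraries than in other starved ones (14.9 and 8.23 CPM for F15A4.8, 7.73 and 5.92 CPM for lipl-3).

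**Figure D3:**
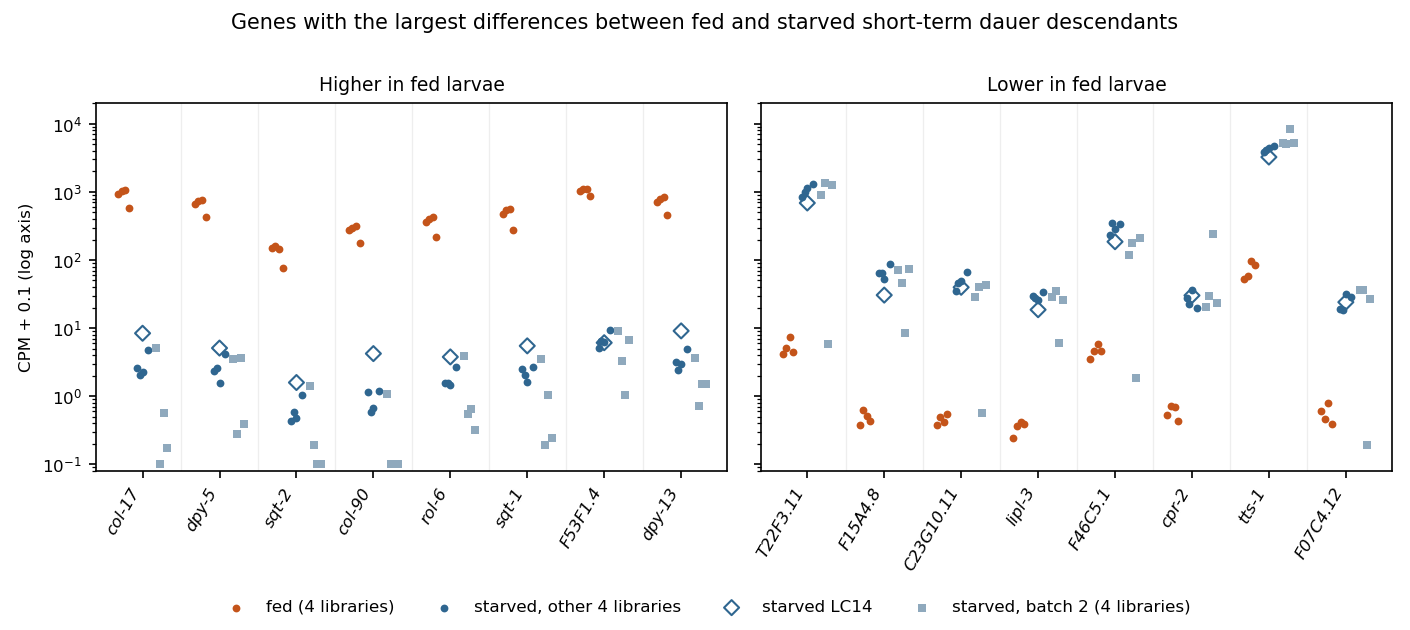
CPM plus 0.1 on a log axis for the 8 genes with the largest rise (left) and the 8 with the largest fall (right) in fed larvae, one point per library (fed, starved with LC14 as an open diamond, and starved of batch 2). Fed and starved libraries of batch 1 do not overlap for any of the 16 genes, and 1 batch 2 library lies at 5.83 CPM for T22F3.11.

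The cuticle is a collagen coat secreted by the epidermis, and the furrow collagens form its ring-shaped folds. All 6 furrow collagen genes were higher in fed larvae, where 28.1% of all genes tested were, with a median log2 fold change of 5.77 (control descendants, 6 higher and 0 lower, median 5.59). The furrow collagen gene dpy-7 had 293, 322, 317 and 153 CPM in fed larvae, against 3.89, 2.92, 2.77, 11.98 and 3.26 CPM in starved larvae (log2 fold change 5.61, SE 0.59, edgeR adjusted p = 4.71e-07), and dpy-10 had 283, 293, 286 and 141 CPM in fed larvae, against 2.68, 2.92, 2.35, 6.60 and 3.43 CPM in starved larvae (log2 fold change 5.98, SE 0.56, edgeR adjusted p = 1.37e-07). Starved LC14 was the highest starved library for both and fed LC14 the lowest fed one. The largest rise in the list was that of dpy-9 (6.91). Counts for this list and those below stand against 28.1% higher and 32.9% lower among all genes tested.

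Of 13 collagen genes outside the furrow group that shape the body, 9 were higher and 1 lower (median 6.50), and 9 were higher and 0 lower in control descendants (median 7.30). The rises ran from 5.37 in lon-3 to 7.60 in dpy-5. Mutations in rol-6 make worms twist and roll, and the gene had 359.6, 403, 434 and 215 CPM in fed larvae, against 1.44, 1.48, 1.37, 3.67 and 2.62 CPM in starved larvae (log2 fold change 7.25, SE 0.32, edgeR adjusted p = 9.36e-12). The embryonic and larval collagen gene sqt-3 had 939, 1119.7, 1130.2 and 602 CPM in fed larvae, against 7.79, 11.8, 14.3, 14.9 and 18.2 CPM in starved larvae (log2 fold change 6.04, SE 0.54, edgeR adjusted p = 6.15e-08). The blister collagen genes bli-1 and bli-2 did not follow. The fall of bli-1 (-1.49, edgeR adjusted p = 0.0262) rests on starved LC14. Its level was 0.803 to 1.59 CPM in fed libraries, against 8.51 CPM in starved LC14 and 1.06 to 1.96 CPM in the other starved libraries, and without that library it was -0.40 (edgeR adjusted p = 0.285).

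Among 15 genes for collagen modification and crosslinking, 9 were higher and 2 lower (median 0.57). The prolyl 4-hydroxylase subunit gene phy-2, whose product stabilises collagen helices, had 86.4, 74.7, 78.9 and 49.3 CPM in fed larvae, against 8.54, 8.10, 7.52, 9.96 and 8.15 CPM in starved larvae (log2 fold change 2.98, SE 0.17, edgeR adjusted p = 1.00e-10). The dual oxidase gene bli-3, whose product crosslinks cuticle proteins, had 50.03 to 71.6 CPM in fed and 41.1 to 64.4 CPM in starved larvae and was not called (log2 fold change -0.02, SE 0.12, edgeR adjusted p = 0.873). Another prolyl 4-hydroxylase gene, phy-3, had 0.233, 0.312, 0.138 and 0.184 CPM in fed larvae, against 3.07, 3.17, 5.01, 7.14 and 3.65 CPM in starved larvae (log2 fold change -4.44, SE 0.66, edgeR adjusted p = 1.28e-05), a direction opposite to that of phy-2.

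Of 24 moulting effectors, which build the apical matrix or cut the old cuticle away, 20 were higher and 0 lower (median 3.98), as in control descendants (20 and 0, median 4.69). The moulting gene mlt-10 had 148, 139, 127 and 75.00 CPM in fed larvae, against 6.35, 6.73, 8.13, 10.9 and 7.77 CPM in starved larvae (log2 fold change 3.82, SE 0.27, edgeR adjusted p = 1.84e-09). A protease inhibitor of the moult, mlt-11, had 1053, 977, 828 and 409.5 CPM in fed larvae, against 8.995, 6.06, 5.85, 35.1 and 9.91 CPM in starved larvae (log2 fold change 5.79, SE 0.74, edgeR adjusted p = 4.21e-06), and it was among the 5 genes farthest above the other starved libraries in starved LC14. The zona pellucida domain genes noah-1 and noah-2 rose by 6.09 and 5.68, and the astacin protease genes nas-36 and nas-37 by 2.39 and 4.15.

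Of 12 transcription regulators of the moulting cycle, 9 were higher and 0 lower (median 0.94). The nuclear hormone receptor gene nhr-23 had 95.7, 90.4, 79.7 and 61.9 CPM in fed larvae, against 14.2, 12.3, 10.9, 18.2 and 11.1 CPM in starved larvae (log2 fold change 2.49, SE 0.21, edgeR adjusted p = 1.29e-08). The oscillating Period homologue lin-42 had 380.4, 404, 358 and 179 CPM in fed larvae, against 7.29, 3.63, 4.10, 12.9 and 4.21 CPM in starved larvae (log2 fold change 5.53, SE 0.48, edgeR adjusted p = 4.23e-08). Rises of 3.86, 2.84 and 2.10 were found in bed-3, myrf-1 and blmp-1, whereas nhr-25 (0.26) and elt-3 (0.27) were not called.

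Hedgehog-related proteins of the Warthog family are secreted by the epidermis in step with the moult. Of 11 of their genes 7 were higher and 1 lower (median 1.45), and without starved LC14 8 were higher and 0 lower of 10 (median 2.80). For wrt-10 the levels were 242, 228, 231 and 115 CPM in fed larvae, against 1.70, 2.61, 1.75, 4.84 and 2.92 CPM in starved larvae (log2 fold change 6.07, SE 0.52, edgeR adjusted p = 3.96e-08). The level of wrt-2 was 54.02, 46.6, 40.2 and 17.7 CPM in fed larvae, against 0.425, 0.247, 0.304, 3.95 and 0.215 CPM in starved larvae (log2 fold change 5.0, SE 0.70, edgeR adjusted p = 1.27e-05), and its log2 fold change was 6.92 without starved LC14. The call of wrt-7 as lower (-2.31, edgeR adjusted p = 0.0487) rests on starved LC14, with 3.92 CPM there and at most 0.558 CPM in any other of the 9, and without it the gene fell below the filter. Without control starved LC6 the adjusted p of wrt-7 in edgeR was 0.0505.

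Antimicrobial peptides of the epidermis, secreted upon infection and wounding, were mixed. Of 19 tested, 8 were higher and 1 lower (median 0.91). The largest rise was in nlp-24, with 113, 133, 139.8 and 118 CPM in fed larvae, against 15.3, 12.5, 13.7, 11.6 and 17.5 CPM in starved larvae (log2 fold change 3.06, SE 0.18, edgeR adjusted p = 1.04e-10). The infection-induced gene nlp-29 had 31.5 to 62.5 CPM in fed and 25.02 to 32.5 CPM in starved larvae, ranges that overlapped, and was not called. The related gene nlp-28 had 3.36, 2.45, 5.59 and 5.49 CPM in fed larvae, against 13.3, 14.5, 9.38, 8.62 and 12.4 CPM in starved larvae (log2 fold change -1.56, SE 0.48, edgeR adjusted p = 0.0106).

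**Figure D4:**
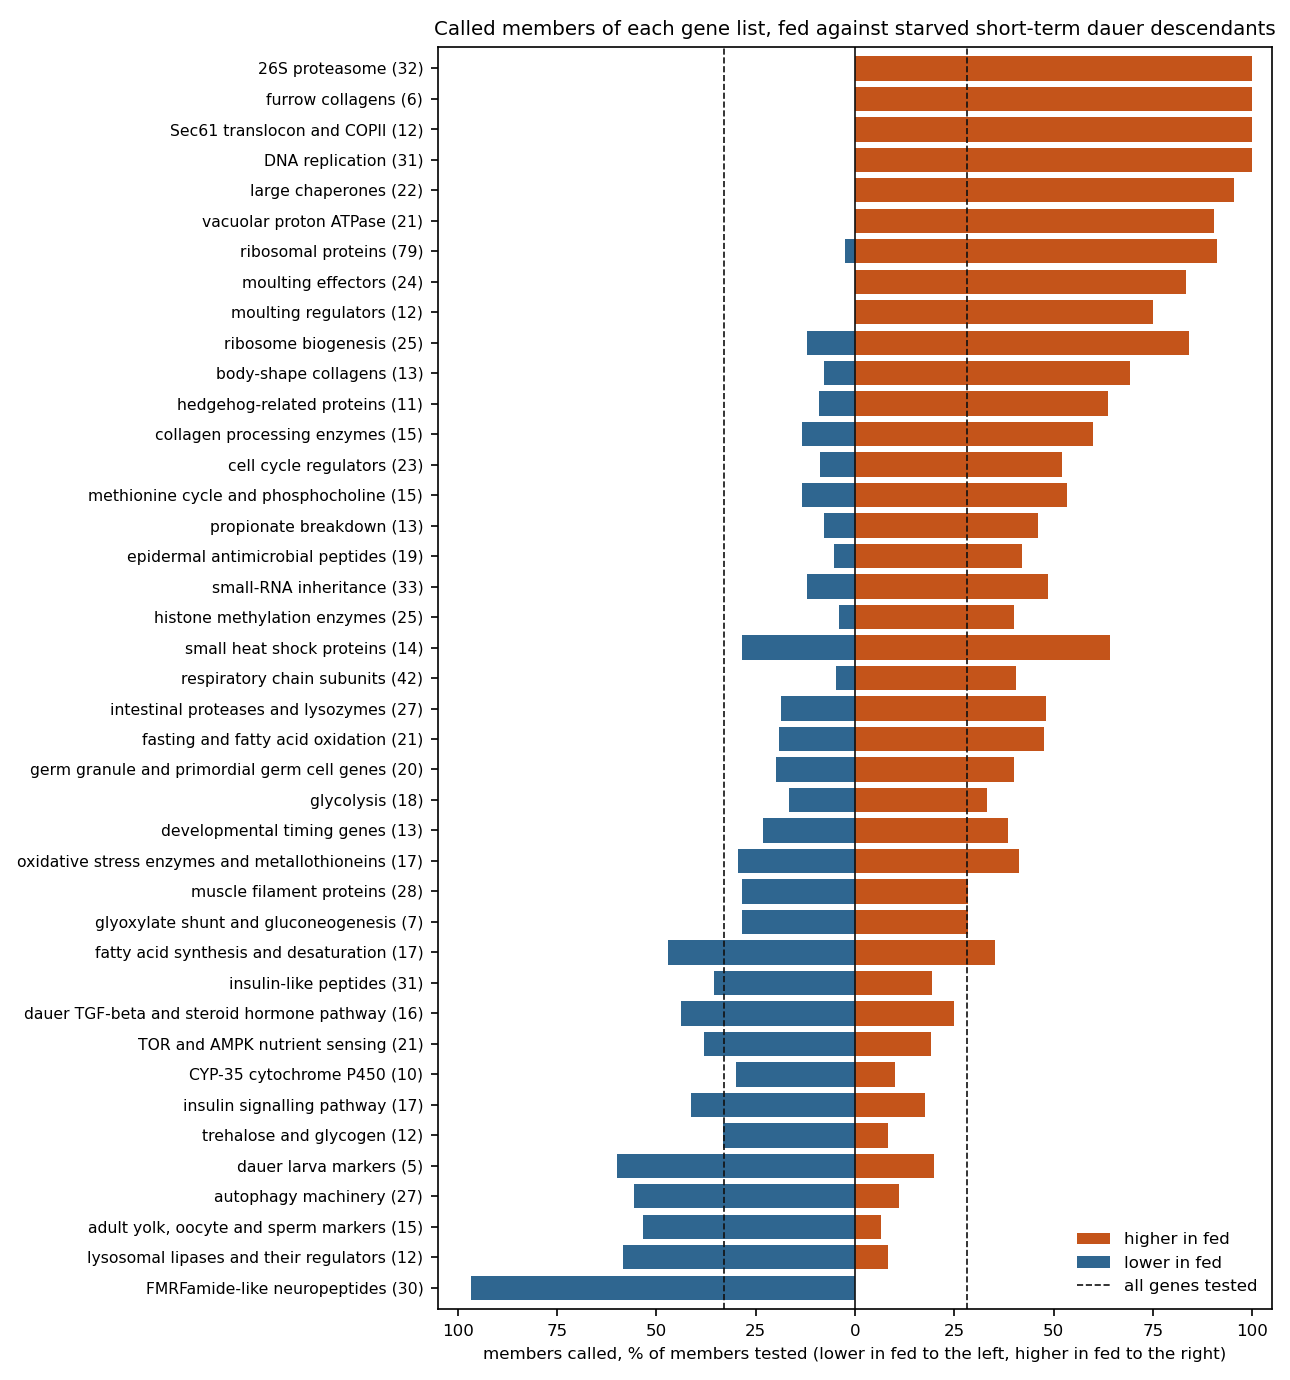
Members called higher (right) and lower (left) in fed larvae as a percentage of the members tested, for 41 gene lists with the number tested in brackets. Dashed lines mark the 28.1% and 32.9% of all genes tested. Every tested member rose in the lists of the proteasome, furrow collagens, Sec61 and COPII, and DNA replication, and 29 of 30 FMRFamide-like neuropeptide genes fell.

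All 31 DNA replication genes tested were higher in fed larvae (median 1.56; control descendants, 31 higher, median 1.68). The replicative helicase subunit gene mcm-5 had 129, 115, 125 and 93.8 CPM in fed larvae, against 29.8, 33.4, 27.7, 20.2 and 29.4 CPM in starved larvae (log2 fold change 1.94, SE 0.12, edgeR adjusted p = 2.68e-10). The sliding clamp gene pcn-1 showed the largest rise, with 154, 168, 177 and 134 CPM in fed larvae, against 25.6, 29.4, 25.6, 16.5 and 32.7 CPM in starved larvae (log2 fold change 2.51, SE 0.16, edgeR adjusted p = 2.75e-10). For the ribonucleotide reductase gene rnr-1 the log2 fold change was 1.99 (SE 0.17, edgeR adjusted p = 7.01e-09). Fed and starved libraries did not overlap for any of the 31, against 28.5% of all genes tested with fed above and no overlap.

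Regulators of the cell cycle were less uniform, with 12 of 23 higher and 2 lower (median 0.58). The mitotic kinase gene cdk-1 had 92.1, 91.7, 92.7 and 65.1 CPM in fed larvae, against 12.2, 16.1, 13.9, 14.1 and 15.2 CPM in starved larvae (log2 fold change 2.47, SE 0.12, edgeR adjusted p = 1.42e-11), and the cyclin genes cyb-3 and cyb-1 rose by 2.38 and 1.80. Cyclin D starts the divisions that follow hatching, and its gene cyd-1 had 68.8, 71.5, 58.6 and 45.3 CPM in fed larvae, against 30.6, 32.8, 31.4, 19.4 and 33.8 CPM in starved larvae (log2 fold change 0.95, SE 0.17, edgeR adjusted p = 7.74e-05). Cell cycle inhibitors moved little: cki-1 had 27.1 to 34.6 CPM in fed and 21.9 to 29.5 CPM in starved larvae and was not called (0.19, turning negative with upper-quartile factors and library totals, and called higher without control starved LC6, 0.26, edgeR adjusted p = 0.0355), and cki-2 was lower (-0.34, edgeR adjusted p = 0.00948).

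Of 79 cytosolic ribosomal protein genes tested, 72 were higher and 2 lower, with a small median of 0.56 (range over 10 alternative fits 0.18 to 0.61, and 0.70 without starved LC6). In control descendants 30 were higher and 2 lower (median 0.34), and no member was called in the difference between ancestries. The ribosomal protein gene rps-0 had 4037, 4401, 4931 and 3879 CPM in fed larvae, against 2604, 2866, 2981, 1836 and 3051 CPM in starved larvae (log2 fold change 0.60, SE 0.16, edgeR adjusted p = 0.00330). For rpl-3 the fold change was 0.40 (edgeR adjusted p = 0.0451), and 0.29 (edgeR adjusted p = 0.0644) without starved LC14. Ribosome assembly genes changed more, with 21 of 25 higher and 3 lower (median 1.40). The nucleolar methyltransferase gene fib-1 had 1414, 1506, 1576 and 1458 CPM in fed larvae, against 217, 255, 263, 173 and 245 CPM in starved larvae (log2 fold change 2.59, SE 0.18, edgeR adjusted p = 6.48e-10). Against this trend the nucleostemin gene nst-1 was lower (-0.58), and so was lpd-7, with 317, 307, 333 and 311 CPM in fed larvae, against 731, 793, 814, 457 and 783 CPM in starved larvae (log2 fold change -1.27, SE 0.18, edgeR adjusted p = 4.90e-06).

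All 32 proteasome subunit genes were higher (median 1.75), and the log2 fold changes of pbs-7, pas-5 and rpn-10 were 2.06, 1.98 and 1.51. The core subunit gene pas-5 had 161, 171, 185 and 132 CPM in fed larvae, against 35.3, 41.1, 41.3, 30.4 and 43.6 CPM in starved larvae (log2 fold change 1.98, SE 0.13, edgeR adjusted p = 4.95e-10). All 12 genes of the Sec61 channel, through which secreted proteins such as collagens enter the endoplasmic reticulum, and of the COPII coat, which buds vesicles from it, were higher as well (median 1.44). The channel subunit gene sec-61.A had 1674, 1658, 1504 and 1229 CPM in fed larvae, against 279, 297, 287, 151 and 294 CPM in starved larvae (log2 fold change 2.44, SE 0.22, edgeR adjusted p = 1.87e-08). Of 22 large chaperone genes tested 21 were higher and 0 lower (median 1.70). The cytosolic Hsp70 gene hsp-1 had 3785, 4022, 3774 and 3110.4 CPM in fed larvae, against 764, 662, 819.7, 347 and 728 CPM in starved larvae (log2 fold change 2.37, SE 0.19, edgeR adjusted p = 5.22e-09), the BiP gene hsp-4 of the endoplasmic reticulum a log2 fold change of 2.80, and the mitochondrial chaperonin gene hsp-60 of 3.04.

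Small heat shock proteins, which hold misfolded proteins, split in 2 directions. Of 14 features tested 9 were higher and 4 lower (median 2.39). The hsp-16 genes, hsp-12.1, hsp-17 and hsp-25 were higher, and hsp-16.2 had 6.86, 21.1, 23.7 and 6.70 CPM in fed larvae, against 0.327, 0.387, 0.456, 1.29 and 0.601 CPM in starved larvae (log2 fold change 4.41, SE 0.47, edgeR adjusted p = 3.32e-07). Those lower were hsp-12.6, hsp-12.3, sip-1 and hsp-43. For hsp-12.6, a target of DAF-16, levels were low, at 0.0466, 0.0892, 0.229 and 0.147 CPM in fed larvae, against 3.86, 1.02, 1.56, 1.68 and 1.63 CPM in starved larvae (log2 fold change -3.99, SE 1.51, edgeR adjusted p = 0.0314). In control starved LC6 hsp-12.6 stood at 50.8 CPM, against 1.72 to 2.48 CPM in the other control starved libraries.

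Fasting metabolism showed very large changes in a few genes. Upon fasting, the nuclear receptor NHR-49 induces acs-2, an acyl-CoA synthetase gene of fatty acid oxidation, and fmo-2, a flavin monooxygenase gene. The level of acs-2 was 18.5, 20.6, 43.4 and 25.01 CPM in fed larvae, against 1246, 1659.7, 1421, 935 and 1739 CPM in starved larvae (log2 fold change -5.80, SE 0.94, edgeR adjusted p = 5.98e-05). That of fmo-2 was 2.71, 2.85, 3.85 and 3.06 CPM in fed larvae, against 45.3, 41.4, 55.9, 34.5 and 51.9 CPM in starved larvae (log2 fold change -3.97, SE 0.66, edgeR adjusted p = 7.04e-05). Both lay far below every starved short-term dauer library of batch 1 in fed larvae. In control starved LC6 and batch 2 library 14, acs-2 stood at 5.15 and 6.38 CPM and fmo-2 at 1.25 and 1.39 CPM, below every fed short-term dauer library. Without control starved LC6 the change of acs-2 was -5.73 (SE 0.25). Of the 21 genes of the list, these included, 10 were higher and 4 lower, with a median of 0.33 that turned negative with upper-quartile factors and with library totals and was 0.52 without starved LC14. The largest rise was that of the carnitine palmitoyltransferase gene cpt-4 (4.09), and the peroxisomal genes daf-22 and maoc-1 rose by 1.31 and 1.19.

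Lipases that break down stored fat, most of them lysosomal, were listed with their regulators, and of these 12 genes 7 were lower and 1 higher (median -0.60). The lipase gene lipl-3 had 0.140, 0.268, 0.321 and 0.295 CPM in fed larvae, against 29.1, 27.9, 26.1, 18.5 and 33.9 CPM in starved larvae (log2 fold change -6.78, SE 0.46, edgeR adjusted p = 1.53e-09), and lipl-4, whose product frees fatty acids for signalling to the nucleus, fell by 4.32. Their regulator hlh-30, the TFEB homologue, had 291, 294, 297 and 275 CPM in fed larvae, against 420.4, 479, 472, 191 and 498 CPM in starved larvae (log2 fold change -0.60, SE 0.18, edgeR adjusted p = 0.00746). Starved LC14 was below every fed library for hlh-30, and without it the log2 fold change was -0.77 (edgeR adjusted p = 4.15e-07).

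Of 17 genes tested for fatty acid synthesis and desaturation 6 were higher and 8 lower, with a median of -0.06 that turned positive without starved LC6 (0.072). The fatty acid synthase gene fasn-1 had 1839, 1600.2, 1475 and 1139.7 CPM in fed larvae, against 420.5, 415, 419, 197 and 409.8 CPM in starved larvae (log2 fold change 1.93, SE 0.26, edgeR adjusted p = 2.81e-06). The branched-chain fatty acid gene acs-1 rose by 2.12, and the elongase genes elo-5 and elo-2 by 1.16 and 1.29. The desaturase genes fat-2, fat-3, fat-4, fat-5 and fat-6 were lower, with log2 fold changes of -1.63, -1.50, -1.15, -1.65 and -0.90. The acetyl-CoA carboxylase gene pod-2 was lower too (-1.38), as were the regulator genes sbp-1 (-0.88) and mdt-15 (-0.67). The ATP-citrate lyase genes acly-1 (0.99) and acly-2 (0.78) were higher. No count was listed for the stearoyl-CoA desaturase gene fat-7 in any of the 28 libraries read. A count of 0 allows up to 3 counts, which would be 0.111 to 0.143 CPM in the 9 libraries and covers counting error only.

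The glyoxylate shunt turns fat into sugar. Its enzyme gene icl-1 had 387, 407, 559.8 and 343 CPM in fed larvae, against 3469, 3836, 3556, 1606 and 3889.8 CPM in starved larvae (log2 fold change -3.04, SE 0.52, edgeR adjusted p = 9.16e-05). In control starved LC6 and batch 2 library 14 it stood at 209 and 164 CPM, below every fed library. Of the 7 genes of the glyoxylate shunt and gluconeogenesis 2 were higher and 2 lower. The gluconeogenesis gene pck-1 had 428 to 547 CPM in fed and 158 to 468 CPM in starved larvae, ranges that overlapped, and was not called (log2 fold change 0.48, SE 0.29, edgeR adjusted p = 0.146), though it was called higher without control starved LC6 (0.55, edgeR adjusted p = 0.0169). Of 18 glycolysis genes 6 were higher and 3 lower, against 28.1% and 32.9% of all genes tested. Their median of 0.08 turned negative with upper-quartile factors, library totals, limma voom and without starved LC14. The aldolase gene aldo-2 had 733, 812, 805 and 622 CPM in fed larvae, against 1440.2, 1529.5, 1269, 729.8 and 1705 CPM in starved larvae (log2 fold change -0.94, SE 0.21, edgeR adjusted p = 9.63e-04), with starved LC14 inside the fed range. The kinase genes pfk-1.1 and pgk-1 were higher, by 0.75 and 1.09.

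Trehalose, a storage and protective sugar of arrested larvae, is made by tps-1, which had 95.7, 96.3, 97.8 and 91.1 CPM in fed larvae, against 246, 264, 243, 129 and 281 CPM in starved larvae (log2 fold change -1.38, SE 0.16, edgeR adjusted p = 6.09e-07). Its list had 1 of 12 genes higher and 4 lower (median -0.21, or -0.08 without starved LC6). Of 15 genes for the methionine cycle and phosphocholine, 8 were higher and 2 lower (median 0.73). The S-adenosylmethionine synthetase gene sams-1 had 1965, 2053, 1646 and 1451 CPM in fed larvae, against 513, 512, 555, 274 and 542 CPM in starved larvae (log2 fold change 1.80, SE 0.26, edgeR adjusted p = 8.06e-06). The phosphatidylcholine synthesis gene pcyt-1 rose by 2.74 and the phosphocholine methyltransferase gene pmt-2 by 1.15. The call of sams-5 as lower (-1.69) did not pass without starved LC14 (-0.88, edgeR adjusted p = 0.246) or without control starved LC6 (edgeR adjusted p = 0.0577).

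Propionate breakdown genes were higher in 6 and lower in 1 of 13 (median 0.57), with the shunt gene hach-1 at 1.54. The first shunt enzyme gene, acdh-1, had 1008 to 1513 CPM in fed and 548 to 995 CPM in starved larvae and was not called (0.59, edgeR adjusted p = 0.115). These ranges did not overlap, and without control starved LC6 acdh-1 was called higher (0.66, edgeR adjusted p = 0.00261). Of 42 nuclear genes for respiratory chain subunits 17 were higher and 2 lower, with a median of 0.26 that turned negative with upper-quartile factors and library totals and was 0.41 without starved LC6. The complex I gene nuo-1 had 626, 660.2, 699 and 558 CPM in fed larvae, against 393, 457, 418, 262 and 429 CPM in starved larvae (log2 fold change 0.60, SE 0.15, edgeR adjusted p = 0.00214). Vacuolar ATPase subunits acidify lysosomes and the gut and epidermal membranes, and 19 of their 21 genes were higher and 0 lower (median 0.78). The intestinal subunit gene vha-6 had 649, 749, 639 and 597 CPM in fed larvae, against 343, 394, 375, 183 and 347 CPM in starved larvae (log2 fold change 0.91, SE 0.23, edgeR adjusted p = 0.00196).

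Of 17 genes of the insulin pathway from the receptor to DAF-16 and its partners, 3 were higher and 7 lower, where 28.1% of all genes tested were higher and 32.9% lower. Their median was -0.09, and it turned positive without starved LC12 (0.025; control descendants, 3 higher and 8 lower, median -0.07). The receptor gene daf-2 had 184, 179, 150.2 and 143 CPM in fed larvae, against 355, 371, 358, 144 and 375 CPM in starved larvae (log2 fold change -1.06, SE 0.22, edgeR adjusted p = 4.56e-04). Starved LC14 lay within the fed range and the other 4 starved libraries well above it. The FOXO factor gene daf-16 had 159.5, 161, 152 and 159 CPM in fed larvae, against 267, 333, 323, 164 and 283 CPM in starved larvae (log2 fold change -0.89, SE 0.14, edgeR adjusted p = 1.99e-05), again with starved LC14 apart from the other starved libraries. Kinase genes downstream of the receptor were lower in akt-1 (-0.85) and pdk-1 (-0.44), and not called in age-1 (-0.09), akt-2 (-0.14) and sgk-1 (0.26). The largest fall was that of eak-4 (-2.54), and the DAF-16 inhibitor gene hcf-1 was higher (0.74).

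Insulin-like peptides are the ligands of DAF-2, some of which activate it and some of which block it. Of 31 tested genes 6 were higher and 11 lower (median -0.64, or -0.42 without starved LC11). The agonist gene daf-28 had 48.1, 50.4, 52.6 and 42.8 CPM in fed larvae, against 18.6, 22.2, 21.2, 13.5 and 21.3 CPM in starved larvae (log2 fold change 1.23, SE 0.16, edgeR adjusted p = 2.35e-06). The agonist gene ins-6 had 3.27, 3.75, 4.35 and 3.98 CPM in fed larvae, against 2.22, 0.951, 0.949, 1.93 and 1.76 CPM in starved larvae (log2 fold change 1.17, SE 0.32, edgeR adjusted p = 0.00403). Both were higher in every fed library than in any starved one. The largest rise was in ins-33, with 5.22, 6.42, 6.10 and 4.46 CPM in fed larvae, against 0.164, 0.106, 0.304, 1.32 and 0.386 CPM in starved larvae (log2 fold change 3.41, SE 0.50, edgeR adjusted p = 1.01e-05). The largest called fall, that of ins-31, rests on levels of at most 1.88 CPM and the gene was below the filter without starved LC14. The antagonist genes ins-17, ins-18 and ins-1 were lower, with log2 fold changes of -1.57, -0.75 and -0.64.

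Dauer entry is controlled by a TGF-beta ligand, DAF-7, and by the nuclear receptor DAF-12 with its steroid ligands. Of 16 genes of these branches 4 were higher and 7 lower, against 28.1% and 32.9% of all genes tested. Their median was -0.23, or -0.12 without starved LC13. The ligand gene daf-7 had 81.1, 72.9, 90.4 and 74.3 CPM in fed larvae, against 123, 139.8, 147, 79.5 and 135 CPM in starved larvae (log2 fold change -0.74, SE 0.14, edgeR adjusted p = 1.97e-04). The receptor gene daf-12 had 189, 193, 147 and 147 CPM in fed larvae, against 74.7, 85.8, 85.8, 46.3 and 84.7 CPM in starved larvae (log2 fold change 1.07, SE 0.16, edgeR adjusted p = 1.24e-05). The largest rise was in the steroid enzyme gene daf-36, with 25.7, 32.5, 26.1 and 25.4 CPM in fed larvae, against 1.54, 1.76, 2.16, 4.002 and 1.07 CPM in starved larvae (log2 fold change 3.55, SE 0.28, edgeR adjusted p = 6.84e-09). The Niemann-Pick C homologue gene ncr-2 was lower (-2.77).

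TOR promotes growth on amino acids and AMPK saves energy in hunger. Of 21 genes of these pathways 4 were higher and 8 lower, against 28.1% and 32.9% of all genes tested. Their median of 0.07 turned negative with upper-quartile factors, library totals, limma voom and without starved LC14. AMPK subunit genes made up 7 of the 8 falls, with aak-2 at 98.9, 96.9, 113 and 92.8 CPM in fed larvae, against 130.4, 155, 149, 95.1 and 165 CPM in starved larvae (log2 fold change -0.56, SE 0.14, edgeR adjusted p = 0.00172) and aakg-4 at 10.96, 10.7, 10.7 and 10.4 CPM in fed larvae, against 64.1, 74.1, 64.1, 39.04 and 71.8 CPM in starved larvae (log2 fold change -2.64, SE 0.16, edgeR adjusted p = 1.39e-10). The gamma subunit gene aakg-2 was higher (0.79). Rag GTPase genes, which recruit TOR to lysosomes, were higher in raga-1 (0.55) and ragc-1 (0.94), and the TOR kinase gene let-363 was not called (0.08).

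Autophagy genes were mostly lower in fed larvae, with 15 of 27 lower and 3 higher, where 32.9% of all genes tested were lower (median -0.35; without starved LC13, median -0.23; without starved LC14, 18 lower and 3 higher, median -0.51). Their products wrap and digest cell contents in hunger. The Atg8 homologue gene lgg-1 had 278, 288, 371 and 308 CPM in fed larvae, against 527, 572, 624, 416 and 618 CPM in starved larvae (log2 fold change -0.92, SE 0.14, edgeR adjusted p = 1.68e-05). Its relative lgg-2 had 78.1, 77.6, 104 and 97.4 CPM in fed larvae, against 295, 289.9, 318, 178 and 334 CPM in starved larvae (log2 fold change -1.76, SE 0.20, edgeR adjusted p = 4.72e-07). The receptor gene sqst-1 (p62) fell by 1.14, and the Beclin gene bec-1 was higher (0.79).

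Stress and gut genes were mixed. Of 17 genes for antioxidant enzymes and metallothioneins 7 were higher and 5 lower, with a median of -0.08 that turned positive with the replicate block and without starved LC6. The mitochondrial superoxide dismutase gene sod-3, a target of DAF-16, had 0.0933, 0.268, 0.0458 and 0.442 CPM in fed larvae, against 7.36, 4.12, 3.23, 2.57 and 4.51 CPM in starved larvae (log2 fold change -4.38, SE 0.85, edgeR adjusted p = 3.10e-04). The metallothionein gene mtl-1 had 1.77, 1.65, 3.12 and 4.16 CPM in fed larvae, against 40.7, 50.2, 35.9, 23.7 and 47.3 CPM in starved larvae (log2 fold change -3.96, SE 0.79, edgeR adjusted p = 4.10e-04). Both were lower in every fed library than in any starved one. In control starved LC6 they stood at 24.9 and 168 CPM, above the other control starved libraries. The constitutive dismutase genes sod-1 and sod-2 rose by 0.45 and 0.92, and the peroxiredoxin gene prdx-6 by 1.21.

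Of 27 genes for gut proteases and lysozymes, which digest bacteria, 13 were higher and 5 lower (median 0.51). The invertebrate lysozyme gene ilys-5 had 266, 298, 352 and 266 CPM in fed larvae, against 5.04, 2.96, 3.99, 5.15 and 4.42 CPM in starved larvae (log2 fold change 5.98, SE 0.28, edgeR adjusted p = 1.52e-11). The cathepsin gene cpr-5 rose by 4.32 and cpr-1 by 0.98, while cpr-2 fell as given above. The gut esterase gene ges-1, a marker of the intestine, was lower (-1.26). Of 10 CYP-35 cytochrome P450 genes 1 was higher and 3 were lower, and 2 were higher and 1 lower without starved LC14. The median was -0.18, and turned positive without that library (0.94), in the 9 libraries alone, with limma voom and with the replicate block. The largest rise was in cyp-35C1, with 12.9, 14.1, 18.2 and 14.6 CPM in fed larvae, against 1.14, 1.41, 1.14, 2.43 and 1.16 CPM in starved larvae (log2 fold change 3.21, SE 0.46, edgeR adjusted p = 1.66e-05).

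FMRFamide-like peptides are neuronal signals for feeding, locomotion and sleep. Of 30 tested flp genes 29 were lower and 0 higher (median -1.05), 27 of them without overlap between the groups, where 20.4% of all genes tested did not overlap with fed below. In control descendants 30 were lower (median -1.31). The gene flp-1 had 89.7, 71.8, 113 and 79.4 CPM in fed larvae, against 173, 192, 225, 151 and 266 CPM in starved larvae (log2 fold change -1.28, SE 0.16, edgeR adjusted p = 1.40e-06). For flp-18 the values were 76.2, 77.2, 90.3 and 75.4 CPM in fed larvae, against 172, 187, 186, 143 and 206 CPM in starved larvae (log2 fold change -1.26, SE 0.13, edgeR adjusted p = 9.13e-08). The largest fall was in flp-27 (-1.77), and flp-8 (-0.24) was not called.

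Muscle filament genes were lower in 8 and higher in 8 of 28, against 32.9% and 28.1% of all genes tested. Their median of 0.01 turned negative with upper-quartile factors, library totals, limma voom and without starved LC14. Without starved LC14, 12 were lower and 8 higher. The body wall myosin gene unc-54 had 3496, 3043, 3130.1 and 2677 CPM in fed larvae, against 4928, 5866, 6073, 1913 and 5958 CPM in starved larvae (log2 fold change -0.77, SE 0.26, edgeR adjusted p = 0.0180), with starved LC14 below every fed library. The pharyngeal myosin gene myo-2 had 1885, 1731, 1392 and 1715 CPM in fed larvae, against 2825, 3397, 3408, 1228 and 3042 CPM in starved larvae (log2 fold change -0.82, SE 0.21, edgeR adjusted p = 0.00277), with starved LC14 again below. Without that library the changes were -0.96 and -0.99. Actin genes act-1, act-2 and act-3 were higher, and act-2 had 185, 179, 200.5 and 136 CPM in fed larvae, against 39.9, 39.7, 42.3, 23.3 and 41.3 CPM in starved larvae (log2 fold change 2.13, SE 0.15, edgeR adjusted p = 6.07e-10).

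Developmental timing genes control which stage-specific divisions occur. Of 13, 5 were higher and 3 lower, against 28.1% and 32.9% of all genes tested. Their median of 0.01 turned negative with upper-quartile factors, library totals and without fed LC12. The early-stage gene lin-14 had 144, 122, 106 and 123 CPM in fed larvae, against 188, 195, 216, 77.9 and 195 CPM in starved larvae (log2 fold change -0.58, SE 0.18, edgeR adjusted p = 0.0105), and the RNA-binding gene lin-28 had 113, 117, 125 and 115 CPM in fed larvae, against 179, 205, 196, 125.9 and 195 CPM in starved larvae (log2 fold change -0.71, SE 0.14, edgeR adjusted p = 2.79e-04). Starved LC14 was below every fed library for lin-14.

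The primordial germ cells of an L1 larva divide once food is present, and their RNA is a small share of that of a larva. Of 20 genes for germ granules and primordial germ cells 8 were higher and 4 lower (median 0.43), against 28.1% and 32.9% of all genes tested. Without starved LC14, 13 were higher and 3 lower (median 0.61), against 30.5% and 29.2% of all genes tested. The germ granule gene pgl-1 had 39.8, 33.9, 43.5 and 30.4 CPM in fed larvae, against 15.4, 15.6, 15.4, 17.97 and 12.7 CPM in starved larvae (log2 fold change 1.14, SE 0.14, edgeR adjusted p = 7.40e-07). The helicase gene glh-1 had 64.7, 57.5, 73.1 and 53.3 CPM in fed larvae, against 35.8, 38.7, 37.8, 31.5 and 29.4 CPM in starved larvae (log2 fold change 0.74, SE 0.12, edgeR adjusted p = 4.14e-05). The translational repressor gene gld-1 rose by 1.21.

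Small RNAs and histone marks can carry information across generations. Of 33 genes for small-RNA inheritance 16 were higher and 4 lower, with a median of 0.29 that turned negative with upper-quartile factors. In control descendants 20 were higher and 2 lower. The Piwi gene prg-1 had 80.9, 72.6, 71.5 and 68.5 CPM in fed larvae, against 23.2, 24.1, 25.8, 20.8 and 21.5 CPM in starved larvae (log2 fold change 1.57, SE 0.091, edgeR adjusted p = 9.46e-11). The nuclear Argonaute gene hrde-1, needed for germline inheritance of silencing, had 40.2, 38.5, 38.2 and 32.9 CPM in fed larvae, against 29.1, 19.3, 22.3, 37.4 and 14.7 CPM in starved larvae (log2 fold change 0.48, SE 0.25, edgeR adjusted p = 0.0979). Starved LC14 lay within the fed range for hrde-1, and without it the gene was called higher (0.72, edgeR adjusted p = 0.00914), as it was without control starved LC6 (0.56, edgeR adjusted p = 0.0482). The exogenous RNA interference gene rde-1 was not called (-0.03). Of 25 histone methylation genes 10 were higher and 1 lower, with a median of 0.20 that turned negative with upper-quartile factors and library totals and was 0.32 without starved LC6. The methyltransferase genes set-2 and met-2 were not called, with 78.01 to 106 CPM in fed and 47.7 to 81.2 CPM in starved larvae for set-2 and 69.6 to 79.1 CPM in fed and 46.7 to 72.5 CPM in starved larvae for met-2, and set-2 was called higher without control starved LC6 (0.34, edgeR adjusted p = 0.0221). The largest rise was in set-30 (1.25), and mes-3, of the repressive MES complex, was lower (-0.67).

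Markers of other stages checked the label of L1 larvae. Of 50 yolk, oocyte and sperm markers of the adult, 15 were tested, 40 were under 1 CPM in every fed library, 38 were under 1 CPM in starved LC11, LC12, LC13 and LC6, and 4 had 0 counts in all 9 libraries. Of the 15 tested, 1 was higher and 8 lower, against 28.1% and 32.9% of all genes tested. Without starved LC14, 2 were higher and 5 lower, against 30.5% and 29.2% of all genes tested. Their summed level was 37.1 to 45.8 CPM in fed libraries, against 164 CPM in starved LC14 and 34.8 to 42.4 CPM in the other starved ones. The yolk gene vit-2 had 0.373, 0.357, 0.458 and 0.258 CPM in fed larvae, against 0.981, 0.423, 0.570, 13.1 and 1.16 CPM in starved larvae (log2 fold change -3.35, SE 0.94, edgeR adjusted p = 0.00524), so that its level in starved LC14 sets the fold change, which was -1.19 (edgeR adjusted p = 0.0452) without that library. The sperm gene msp-31 stayed at or under 0.221 CPM in fed and 0.300 CPM in starved libraries. Another member, cbd-1, went the other way from vit-2, with log2 fold changes of 0.51 to 0.97 when each library was left out in turn. It was not near the floor, at 6.54 to 8.03 CPM in the control starved libraries other than LC6. Of 7 dauer cuticle and surface markers, 5 were tested, with 1 higher and 3 lower, and 1 and 2 without starved LC14. Their summed level was 97.4 to 137 CPM in fed libraries, against 102 CPM in starved LC14 and 90.8 to 116 CPM in the other starved ones. In fed libraries lips-6 carried most of that sum. In the other starved libraries 5 of the 7 were under 1 CPM, lips-6, cut-1 and col-2 among them, and members not named here carried most of it. The dauer cuticlin gene cut-1 had 0.140, 0.223, 0.275 and 0.221 CPM in fed larvae, against 0.589, 0.0704, 0.152, 6.10 and 0.300 CPM in starved larvae and was below the filter. The collagen gene col-2 had 0.0466, 0.0892, 0.275 and 0.258 CPM in fed larvae, against 0.654, 0.247, 0.456, 5.65 and 0.515 CPM in starved larvae (log2 fold change -3.30, SE 0.89, edgeR adjusted p = 0.00368), and without starved LC14 its log2 fold change was smaller (-1.52, edgeR adjusted p = 0.0205). The median log2 fold change of the adult markers tested was -1.43, or -0.50 without starved LC14. That of the dauer markers was -2.82, or -1.40 without it. Among the dauer-marker members lips-6 went the other way, with 87.4, 103, 119 and 76.3 CPM in fed larvae, against 0.556, 0.317, 0.532, 3.47 and 0.644 CPM in starved larvae (log2 fold change 6.22, SE 0.52, edgeR adjusted p = 3.36e-08). The adult marker list and starved LC14 move together, and leaving that library out was the only test made of its part.

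**Figure D5:**
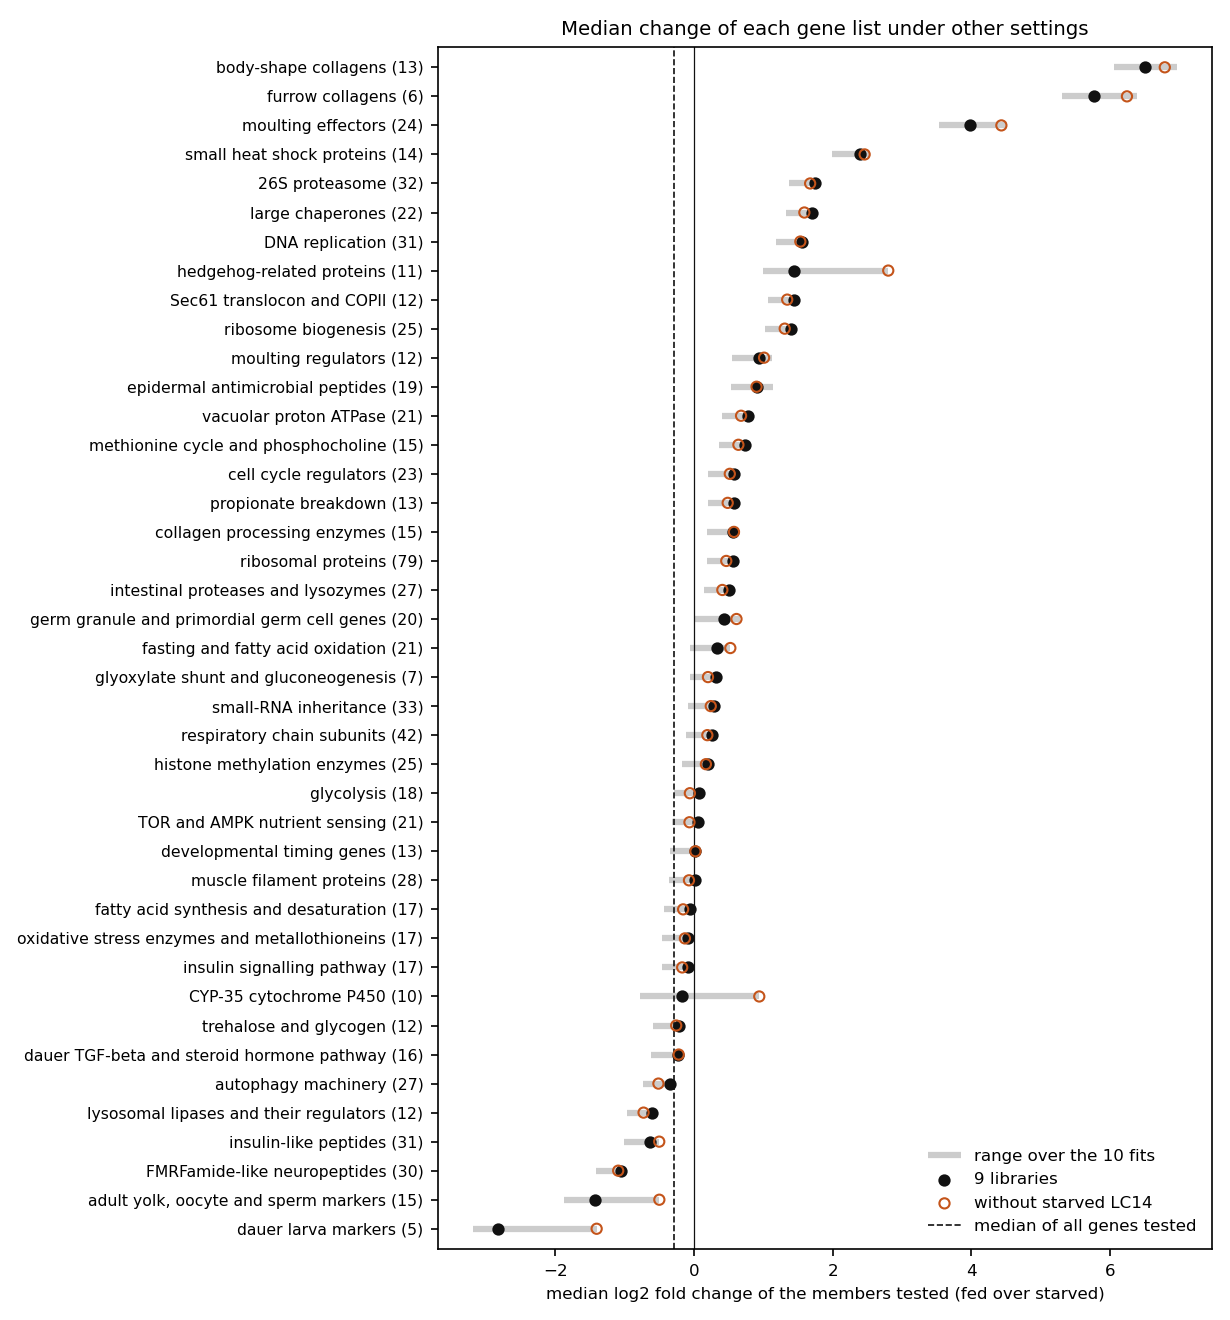
Median log2 fold change (fed over starved, short-term dauer descendants) of the members tested in each of 41 lists. Filled points, labelled 9 libraries, come from the fit of 18 libraries, and open points from that fit without starved LC14. A grey bar gives the range over 10 fits and a dashed line the median of all genes (-0.29). The hedgehog-related, CYP-35, adult-marker and dauer-marker lists move most when starved LC14 is left out.

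Single genes show how starved LC14 stood apart. Farthest above the other starved libraries, among genes with a mean of at least 10 CPM over the 5 starved libraries, were B0207.5, mlt-11, F30H5.3, Y54G11A.14 and fbxo-11.2. That mean includes starved LC14 itself, and over the other 4 starved libraries these genes averaged 5.35, 7.70, 6.73, 6.86 and 8.33 CPM. For B0207.5 the values were 2.99, 3.57, 1.60 and 5.45 CPM in fed larvae, against 10.2, 5.39, 3.11, 30.2 and 2.70 CPM in starved larvae (log2 fold change -1.76, SE 0.76, edgeR adjusted p = 0.0536), and without starved LC14 the log2 fold change was -0.75. The gene fbxo-11.2 had 23.8, 25.2, 23.8 and 23.2 CPM in fed larvae, against 13.4, 8.35, 5.85, 26.1 and 5.67 CPM in starved larvae. It was not called in the fit of 18 libraries but was called higher without starved LC14 (1.43, edgeR adjusted p = 0.00665). Farthest below were 4 features of the ribosomal RNA repeat and the giant muscle gene unc-22. The 26S ribosomal RNA feature rrn-3.1 had 20583, 20876, 26029 and 9296 CPM in fed larvae, against 27514, 20072, 12354, 4269 and 25797 CPM in starved larvae, with fed LC14 the lowest of the fed libraries as well. Libraries were made from polyadenylated RNA, so counts of ribosomal RNA are what that selection left. The muscle gene unc-22 had 1513, 1349, 976 and 1148 CPM in fed larvae, against 1606, 1982, 1864, 475 and 1792 CPM in starved larvae, and none of these 5 features was called in the fit of 18 libraries. Without starved LC14, unc-22 was called lower (-0.62, edgeR adjusted p = 0.00208).

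The smallest p-values for a response that differed between ancestries did not pass the adjustment, and the lowest edgeR adjusted p was 0.9998. Among genes with a mean of at least 10 CPM in at least 1 group, those leading with a positive difference were faah-6, abf-5 and R05A10.1. They fell less with food in short-term dauer than in control descendants. Without control starved LC6 their log2 fold changes were -1.86, -0.68 and -0.53 in short-term dauer descendants, against -2.59, -1.18 and -1.15 in control descendants. The amidase gene faah-6 had 3.55, 4.50, 5.82 and 4.60 CPM in fed larvae, against 16.3, 17.7, 15.5, 16.5 and 16.1 CPM in starved larvae, and 1.75 to 3.21 CPM in fed and 15.0 to 20.7 CPM in starved control larvae (log2 difference of the responses 0.83, SE 0.22, edgeR unadjusted p = 0.00139, not called). Those leading with a negative difference were F13H8.5, col-89 and lact-8. Of these, F13H8.5 and col-89 rose less with food in short-term dauer than in control descendants (3.81 against 4.98 and 0.78 against 1.40 without control starved LC6). F13H8.5 had 61.1, 59.7, 50.6 and 38.9 CPM in fed larvae, against 2.91, 3.35, 3.08, 5.21 and 3.43 CPM in starved larvae, and 67.9 to 88.9 CPM in fed and 2.07 to 2.85 CPM in starved control larvae (log2 difference -1.18, SE 0.26, edgeR unadjusted p = 1.81e-04, not called). Both genes moved the same way with food in both ancestries.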

How the data were processed

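Polyadenylated RNA of whole larvae was sequenced with a non-directional kit, per the labels' protocols. The authors deposited raw read counts per gene, 1 file per library, with 44968 features and 5 summary rows. Bowtie 1.1.2, HTSeq and edgeR are named in the submitters' processing notes, and the genome build and annotation are not given in the sources used here. Summary rows were left out of library sizes and tests. Gene symbols and classes come from the Ensembl annotation of WBcel235, in which 44443 of the 44968 features matched by identifier and 525 did not.

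Counts of the 18 batch 1 libraries of short-term dauer and control descendants were fitted with edgeR 4.0.16 (quasi-likelihood, robust, TMM factors, filterByExpr, 1 coefficient per group) in R 4.3.3, with Benjamini-Hochberg adjustment over 18524 genes and a threshold of 0.05. CPM were scaled by TMM factors over the genes of the fit. Alternatives used DESeq2 1.42.0, limma 3.58.1, other scalings, filters and libraries, and the fits were tested on simulated counts. The named genes are the 8 largest changes in each direction with a mean of at least 10 CPM and no overlap, list anchors, and the largest called rise and fall of each of 41 lists. Added to these are the 3 lowest p-values in each direction for the difference of responses, among genes with a mean of at least 10 CPM in at least 1 group. The 5 genes farthest above and below in starved LC14 complete the set. Members and lists were chosen with earlier results of these data known. Genes named outside this rule, among them lon-3, noah-1, fat-2 and akt-1, are other members of the lists and were chosen after their values were seen. Starved LC14 was left out as an alternative.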

Additional observations from a re-analysis of the deposited data

Results flagged for a closer look

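Each value below is that of the library farthest from the others of its group, where its gap to the nearest of them exceeded Dixon's 95% critical value for a group of 4 fed or 5 starved libraries. Of 334 group values tested, 69 were picked out in this way. Chance alone gives about 1 in 20, but the values are not independent, and the share of reads outside genes and 10 of the genes were looked at because starved LC14 stood apart in them. Gene values are log2(CPM + 0.5) with TMM scaling.

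Starved LC14 accounts for most of them, and the direction depends on the scaling. Its TMM factor was 1.73, against 1.02 to 1.14 in the other starved libraries. Of 328 gene values, it was far below the other starved libraries in 37 and far above in 12 with TMM, and in 6 and 31 when CPM were scaled by library totals, an alternative chosen after seeing the data. With library totals 52 gene values were picked out in place of 68, and fed LC14 was far below the other fed libraries in 7 and far above in 3. With TMM starved LC14 was far below the other starved libraries in 37 named genes, and far above them in 13 values. The share of reads outside genes was 12.6% there. The 12 genes far above the other starved libraries, which were low in them, were dpy-7 3.64, bli-1 3.17, mlt-11 5.16, wrt-2 2.15, wrt-7 2.14, cpt-4 2.93, cyp-35C1 1.55, vit-2 3.77, cut-1 2.72, col-2 2.62, lips-6 1.99 and F13H8.5 2.51. Those far below were mostly well expressed. Of metabolic, signalling and cuticle genes the values in starved LC14 were bli-3 5.38, daf-2 7.17, daf-12 5.55, let-363 6.91, aakg-4 5.30, sqst-1 7.35, lgg-2 7.48, hlh-30 7.58, fasn-1 7.62, acs-1 4.61, icl-1 10.65, tps-1 7.02 and gsy-1 6.39. Further values there were sams-1 8.10, mmcm-1 6.52, hach-1 6.19, nuo-1 8.04, vha-6 7.52, vha-13 8.73, hsp-1 8.44, sec-61.A 7.24, sec-23 4.41, rpl-3 11.50, lpd-7 8.84, cyd-1 4.31 and lin-14 6.29. The remaining ones were lin-28 6.98, unc-54 10.90, myo-2 10.26, act-2 4.58, mlc-2 10.15, rde-1 5.82, set-2 5.59, met-2 5.56, mes-3 5.61, R05A10.1 5.13 and unc-22 8.89.

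Fed LC14 was far below the other fed libraries in 14 named genes, most of them cuticle, moulting or growth genes that were higher in fed larvae. The values were sqt-2 6.27, dpy-7 7.26, dpy-10 7.15, mlt-8 7.17, lin-42 7.49, wrt-10 6.86, ragc-1 5.82, bec-1 4.59, gob-1 6.20, rpn-10 6.85, cdk-1 6.04, F31C3.10 9.64, F31C3.7 10.63 and F31C3.8 10.83. It was far above them in ncr-2, at 1.38. Fed LC13 was far above the other fed libraries in rpl-41.1 7.05, flp-18 6.50 and R05A10.1 5.37, and fed LC12 in daf-36 5.04.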

How the results depend on the processing

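The count of 11301 genes called in short-term dauer descendants stayed within 1.5 times under every alternative run, from 9846 to 11653 when each of the 18 fitted libraries was left out in turn. It was 11583 with DESeq2, 12604 with limma voom, 10366 in the 9 libraries alone and 11509 in those without starved LC14, an alternative chosen after seeing the data. The response difference called 0 genes in each of these fits that held control descendants. The fits of the 9 libraries alone hold none, so it was not computed there. The difference in reads outside genes ran from -3.77 to -1.42 percentage points when 1 library was left out, with the smallest size without starved LC14, and it no longer passed without any 1 fed library (-3.37 to -3.10 points, exact permutation p = 0.179 to 0.214). Of 4104 values for the 133 named genes called, 3974 kept direction and call, 130 kept direction and lost the call, and 0 reversed. Over the named genes not called, 96 values changed sign and 92 passed the threshold. Over the 41 lists, 61 of 1271 medians moved by more than the spread between libraries.

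The values with a changed sign belong to 14 genes that were not called, with small log2 fold changes, and the cause was not tested. With DESeq2, bli-3 was at 0.0094. With RLE size factors, bli-3 was at 0.0094. Without a filter on low counts, they were 0.20 for bli-3, 0.18 for gsy-1 and 0.19 for rde-1. With all 24 libraries of batch 1, they were 0.039 for bli-3, 0.021 for gsy-1 and 0.025 for rde-1. In the 9 libraries alone, they were 0.011 for bli-3, 8.43e-04 for gsy-1 and 7.40e-04 for rde-1. With the replicate block in the 9 libraries alone, they were 0.028 for bli-3, 0.11 for gsy-1 and 0.047 for rde-1. With limma voom, let-363 was at -0.0023. With upper-quartile factors, they were -0.29 for let-363, -0.23 for mmcm-1, -0.19 for cki-1, -0.25 for lys-8, -0.17 for cyp-35A3, -0.10 for set-2, -0.26 for met-2, -0.36 for F31C3.10, -0.37 for rrn-3.1, -0.26 for F31C3.7 and -0.27 for F31C3.8. With library totals, they were -0.19 for let-363, -0.14 for mmcm-1, -0.12 for cki-1, -0.16 for lys-8, -0.18 for cyp-35A3, -0.012 for set-2, -0.17 for met-2, -0.24 for F31C3.10, -0.25 for rrn-3.1, -0.15 for F31C3.7 and -0.15 for F31C3.8. In the short-term dauer libraries alone without starved LC14, they were -0.054 for let-363, -0.24 for F31C3.10, -0.25 for rrn-3.1, -0.13 for F31C3.7 and -0.14 for F31C3.8. With the replicate block and without starved LC14, they were -0.028 for let-363, -0.017 for lys-8, -0.23 for F31C3.10, -0.20 for rrn-3.1, -0.14 for F31C3.7 and -0.15 for F31C3.8. With the replicate block over 18 libraries, they were 0.0099 for gsy-1 and 0.0044 for rde-1. When each library was left out in turn, the ranges were -0.11 to 0.081 for bli-3, -0.064 to 0.20 for let-363, -0.17 to 0.12 for gsy-1, -0.13 to 0.081 for rde-1, -0.24 to 0.27 for F31C3.10, -0.25 to 0.26 for rrn-3.1, -0.13 to 0.36 for F31C3.7 and -0.14 to 0.35 for F31C3.8.

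Libraries with the same LC number did not deviate together in every pair: the correlations of fed and starved deviations were -0.10, 0.11, 0.21 and 0.36 for LC11, LC12, LC13 and LC14, so the numbers were not taken to pair the libraries. The 3 pairs LC12, LC13 and LC14 were over 0.1, and in these each fed library correlated best with its own number, while LC11 did not. With the replicate block 11877 genes were called. In simulated counts edgeR recovered 56% of genes changed by 1 on the log2 scale between fed and starved larvae, and 30% for the difference of responses, which limits what that count of 0 can show. For changes of 1.5 the values were 60% and 50%. Only 100 genes were changed by 1 and 100 by 1.5 among 18524, far fewer than the 11301 called between fed and starved larvae. The 56% and 60% thus cannot be carried over to that comparison.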
